A study of Mus musculus with 4 samples.

Results

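The Krüppel-like factor (KLF) genes described here are 10 of the paralogs that the study's guide RNAs did not target: Klf3, Klf6, Klf7, Klf8, Klf9, Klf10, Klf11, Klf12, Klf13 and Klf16. Klf1, Klf14, Klf15 and Klf17 were not targeted either and lie outside this chosen set. The 10 members were found by symbol among the 45706 genes of the count table, and all 10 were present. All 10 passed the filter on low counts. The question was whether any of them changed after induction of Cas9 against their relatives Klf2, Klf4 and Klf5, as compensation or as co-regulated genes.

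KLF proteins are transcription factors with zinc fingers at their C-terminal end, which bind GC-rich sequences and CACCC boxes, so that relatives can occupy the same sites. Outside the zinc fingers they differ. KLF3, KLF8 and KLF12 recruit the corepressor CtBP, KLF6 and KLF7 are mostly known as activators, and KLF9, KLF10, KLF11, KLF13 and KLF16 bind the corepressor Sin3A. In mouse embryonic stem cells, KLF2, KLF4 and KLF5 are known for their shared part in holding the naive pluripotent state.

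The cells were V6.5, a mouse embryonic stem cell line, transduced with a lentivirus that carries guide RNAs and a doxycycline-dependent promoter (TRE3G) driving Cas9 and GFP. After puromycin selection, clones were picked, and those kept were the ones whose western blots showed loss of the KLF proteins once doxycycline was added. Guides were described as aimed at KLF4 only or at all of KLF2, KLF4 and KLF5. The 0 h group (replicates A and B, genotype KLF WT) was taken before doxycycline, and the 24 h group (replicates A and B, genotype KLF KO) after 24 h of it. All cells grew on irradiated feeder cells with 15% serum, 1000 U/ml LIF and 2i, which pairs inhibitors of MEK (1 µM) and of GSK3 (3 µM). Titles carry the abbreviation TKO, those of 0 h name WT ESCs and those of 24 h name a KLF4 KO, so the guides in a given library are uncertain. No source used here says whether A and B were different clones, and doxycycline, Cas9, DNA cutting and time share the contrast with any loss of KLF protein.

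Libraries held 46031578 to 52412844 counts. Levels are CPM, a library's counts scaled to a common total with TMM factors, and levels of different genes are compared as CPM per kilobase of annotated exon. The stem cell markers Pou5f1, Sox2, Nanog and Esrrb were at 496.3 CPM or more in every library, and of 8 such markers 3 fell (Utf1, Pou5f1 and Zfp42) and 0 rose, beside 2.65% and 4.15% of all genes tested. DESeq2 called 3 lower and 0 higher, beside 5.28% and 5.76% of all genes. After the GC and length correction described further on, 5 were lower and 0 higher, beside 12.5% and 12% of all genes. The number called also changed with the library left out. Each of 16 feeder fibroblast markers had a count in at least 1 library. Their summed level was 2162 to 2784 CPM at 0 h and 2127 to 2193 CPM at 24 h. Of the 13 that were tested, 1 (Pdgfrb) passed, lower, beside 2.65% of all genes, a call lost with 24 h B left out. The part of these markers in the results below was not tested. Much of that sum was Fn1 (1988 to 2611 CPM). Other feeder markers were also present, among them Col1a1 (59.63 to 90.08 CPM), Col1a2 (18.7 to 25.82 CPM) and Acta2 (12.98 to 17.93 CPM). The fibroblast genes Dcn, Lum and S100a4 were each at 0.1186 CPM or less and were not tested. Replicate A of 0 h stood apart. Across 11293 genes, which are no independent replicates, the deviation of that library from the others' mean followed GC content with a Pearson's r of 0.659, against -0.387 to -0.283 in the other libraries. Each log2 fold change below that moved by over 1.5 times when this library was left out is given both ways.

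The promoter windows of both members that fell, Klf3 and Klf8, are shown with that of Klf9, the most abundant member per kilobase, to set the CACCC box (a KLF binding element) of each side by side. Capitals mark CACCC or its reverse complement GGGTG, read on both strands. Windows run from 250 bases before to 50 after a start, 300 bases in all, from RefSeq on GRCm38.p6. Klf8 has 2 windows, since the table lists 2 starts. The windows are chr5:64803271-64803570 (plus strand) for Klf3, chrX:153237498-153237797 and chrX:153359363-153359662 (plus strand) for Klf8, and chr19:23140976-23141275 (plus strand) for Klf9.
Klf3: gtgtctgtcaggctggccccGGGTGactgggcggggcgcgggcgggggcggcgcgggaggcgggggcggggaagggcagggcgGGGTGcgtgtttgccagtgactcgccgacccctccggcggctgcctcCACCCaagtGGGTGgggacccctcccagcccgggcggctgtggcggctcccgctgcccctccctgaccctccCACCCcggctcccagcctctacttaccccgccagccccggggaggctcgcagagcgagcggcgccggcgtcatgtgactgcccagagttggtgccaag
Klf8, first start: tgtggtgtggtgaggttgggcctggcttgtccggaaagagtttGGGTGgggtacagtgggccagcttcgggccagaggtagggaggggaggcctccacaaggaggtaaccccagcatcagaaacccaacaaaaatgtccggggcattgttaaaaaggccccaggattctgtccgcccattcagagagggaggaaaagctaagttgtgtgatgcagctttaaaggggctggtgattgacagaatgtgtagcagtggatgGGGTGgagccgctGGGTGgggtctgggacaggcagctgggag
Klf8, second start: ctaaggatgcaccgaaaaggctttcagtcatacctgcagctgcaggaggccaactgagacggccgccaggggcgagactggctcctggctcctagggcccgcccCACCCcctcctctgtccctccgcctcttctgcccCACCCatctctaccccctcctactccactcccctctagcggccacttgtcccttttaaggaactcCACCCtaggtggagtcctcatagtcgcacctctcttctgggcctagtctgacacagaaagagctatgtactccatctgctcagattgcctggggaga
Klf9: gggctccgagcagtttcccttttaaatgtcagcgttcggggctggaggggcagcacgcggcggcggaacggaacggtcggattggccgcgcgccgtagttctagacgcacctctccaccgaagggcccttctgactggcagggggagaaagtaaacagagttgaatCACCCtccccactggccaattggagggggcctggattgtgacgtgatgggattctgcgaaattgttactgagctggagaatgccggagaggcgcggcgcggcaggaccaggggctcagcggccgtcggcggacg
The Klf3 window holds 5 matches, each Klf8 window 3 and the Klf9 window 1. In the first Klf8 window, the matches at bases 8 and 21 lie after the start. Of 32851 windows in the table, 57.5% hold at least 1 match, 9.35% at least 3 and 1.02% at least 5. Those shares are not matched for GC content. It was 76.67% in the Klf3 window, 57.33% and 60.0% in those of Klf8 and 63.33% in that of Klf9. Among the other members, the window of Klf7 holds 3, those of Klf12 and Klf13 1 each, and those of Klf6 and Klf11 0. GGGCGG, the box of SP factors (reverse complement CCGCCC, whose end letters can also belong to a CACCC match), occurs 6 times in the Klf3 window, 1 time in each Klf8 window and 0 times in that of Klf9, and 35.7% of all windows hold it. A longer motif, GGGNGTGG (N any base), was also scanned on both strands, and 17.6% of all windows hold it. It occurs 0 times in the Klf3, Klf9 and first Klf8 windows, and 2 times in the second Klf8 window. The window of Klf13 holds it 2 times, those of Klf7 and Klf12 1 time each, and those of Klf6 and Klf11 0 times. These are matches of letters, not measured binding sites. Windows for 8 of the 10 members were matched, and Klf10 and Klf16 had none in the table.

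At 0 h the levels of the 10 transcripts per kilobase spanned Klf9 at 38.29 ± 1.81 CPM per kilobase (SD, n = 2) to Klf12 at 0.1166 ± 0.0232. Klf10 followed Klf9 at 35.92 ± 2.22, and the ranges of these 2 genes overlapped. Klf16 came next at 25.38 ± 6.95, then Klf3 at 14.48 ± 2.18 and Klf6 at 13.61 ± 1.86, whose ranges also overlapped. Klf8 (9.626 ± 0.119), Klf11 (8.626 ± 0.399) and Klf13 (7.108 ± 1.16) followed without overlap between neighbours, and Klf7 was at 1.359 ± 0.0315. Averaged over the libraries of both times, Klf9 was at a higher level per kilobase than 91.2% of tested genes with an annotated exon length. Klf12 was higher than 4.16% of them.

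At 24 h the order had Klf9 at 40.89 ± 0.808 CPM per kilobase (SD, n = 2), Klf10 at 28.41 ± 0.392, Klf16 at 16.97 ± 0.234 and Klf6 at 13.71 ± 0.338. Below them, Klf3 (9.164 ± 0.184) stood behind Klf6, and Klf8 (5.23 ± 0.181) had passed from above Klf11 and Klf13 to below both. No neighbouring ranges overlapped at 24 h. Exon length covers every annotated isoform, so a gene with a long and seldom used isoform reads too low on this scale.

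**Figure D1:**
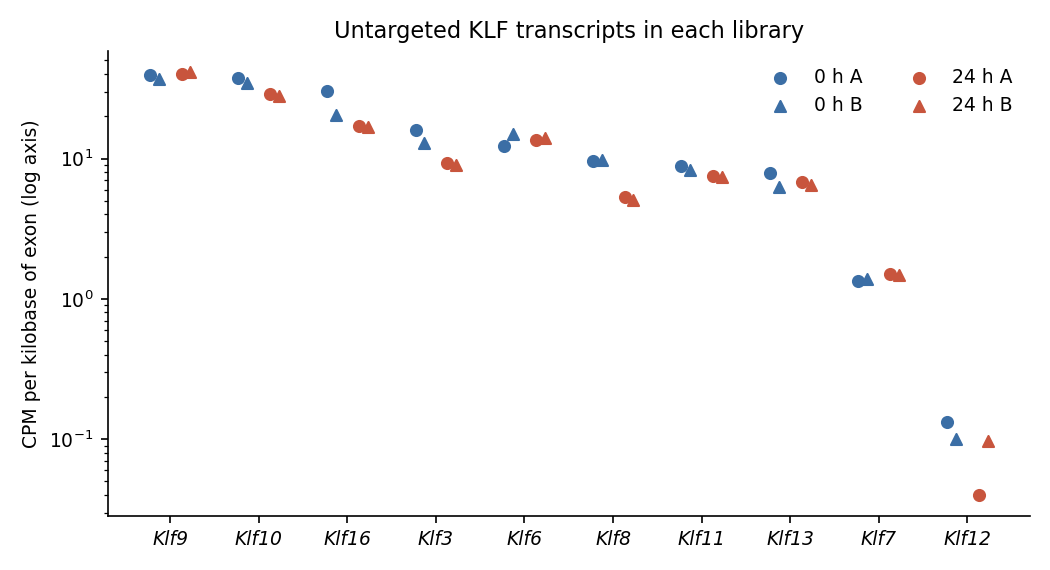
Level of the 10 KLF members in CPM per kilobase of exon (log axis), with 1 point for each library (blue 0 h, red 24 h, circles replicate A, triangles replicate B) and genes in the order of their 0 h mean. Red points of Klf8 and Klf3 lie below the blue ones, those of Klf9 do not, and the points of Klf16 at 0 h are far apart (30.29 and 20.46).

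In the comparison of 24 h with 0 h, 2 of the 10 members passed edgeR's quasi-likelihood test, Klf8 and Klf3, both lower. Among all 18005 genes tested, 6.8% passed, 2.65% lower and 4.15% higher. At an unadjusted p under 0.05, 4 of the 10 were lower and 0 higher, against 25.8% of all genes in either direction and 12.6% lower. The log2 fold change was negative for 7 of the 10, as for 50.8% of all genes, and its median was -0.28 over the 10 and -0.01 over all genes tested. The groups of 6 members did not overlap with 24 h lower and those of 2 with 24 h higher, beside 29.5% and 29.3% of all genes. No member passed as higher, with 0 also in DESeq2 (5.76% of all genes higher) and limma voom (3.87%). In bulk RNA, fewer cells of a type and less RNA per cell cannot be told apart.

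**Figure D2:**
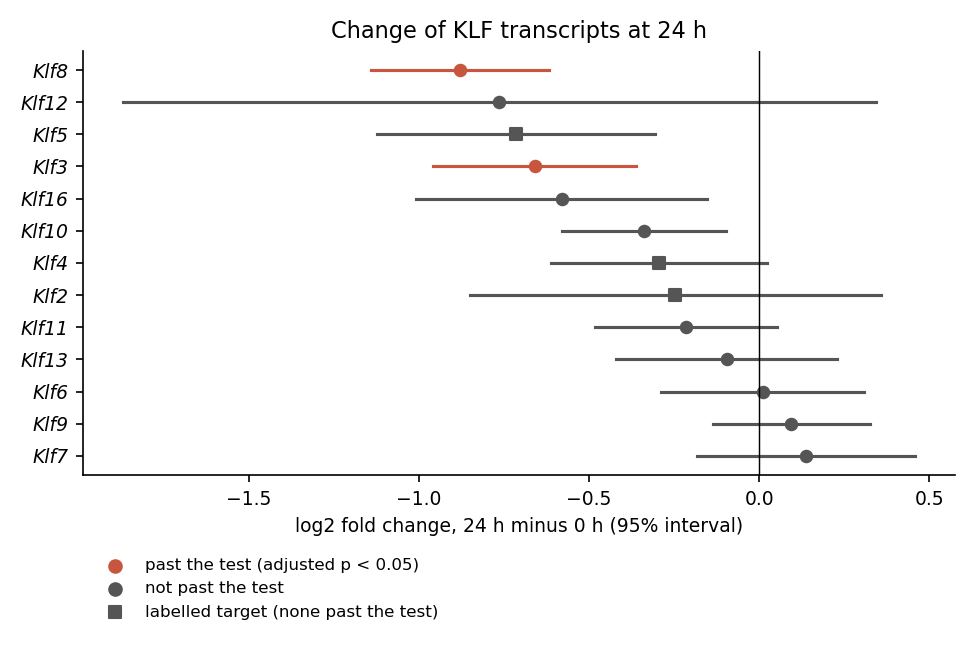
Log2 fold change of each KLF transcript at 24 h against 0 h with its 95% interval from edgeR's fit (2 libraries a group; circles untargeted members, squares the labelled targets, red past the test). Klf8 and Klf3 are the genes in red, and the interval of Klf12, which had 14 to 47 counts a library, is the widest.

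Of the labelled targets, Klf2, Klf4 and Klf5, 0 of 3 passed edgeR's test. At an unadjusted p under 0.05, 1 (Klf5) was lower, beside 12.6% of all genes. DESeq2 called 1 lower (Klf5) and limma voom 0, beside 5.28% and 2.16% of all genes lower. Klf5 was at 430.9 and 294.3 CPM at 0 h (A and B) and at 225.9 and 215.6 CPM at 24 h (log2 fold change -0.72, adjusted p = 0.0567). It was called lower in 8 of 14 alternatives, among them the GC and length correction described further on, and was at -0.42 when 0 h A and -0.97 when 0 h B was left out. Klf4 was at 331.4 and 257.0 CPM, then 244.4 and 235.7 CPM (-0.29, or -0.10 when 0 h A was left out and -0.47, called, when 0 h B was). Klf2 was at 231.9 and 123.5 CPM, then 147.3 and 152.5 CPM, so its groups overlapped. At a log2 fold change of -0.25, Klf2 did not pass, but it passed as higher when 0 h A was left out (0.28) and as lower when 0 h B was (-0.63). Cas9 can disrupt a protein without lowering its transcript, so these levels do not check the labels.

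Both calls fell among the 3 CtBP-binding members. Their median log2 fold change, -0.76, is the value of Klf12, which was not called and was near the limit of detection. Klf8 encodes a repressor linked to cell cycle progression and cell adhesion, and its gene lies on chromosome X, 153237466 to 153396132 (plus strand, GRCm38). It was at 49.67 and 50.55 CPM at 0 h (replicates A and B) and at 27.89 and 26.56 CPM at 24 h, from 2513, 2457, 1386 and 1243 counts. Both 24 h libraries lay well below both 0 h libraries, and replicates of each time were close. The transcript fell by 45.7%, a log2 fold change of -0.88 (SE 0.11, 95% interval -1.14 to -0.62, adjusted p = 0.00979), and 3.54% of genes tested had a lower value. Leaving out 0 h A gave -0.89 and leaving out 0 h B gave -0.87. With 24 h B left out, the call of Klf8 was lost (-0.86, adjusted p = 0.0894), and with 24 h A left out it held (-0.94, adjusted p = 0.0479).

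Klf3 encodes the repressor first described as basic Krüppel-like factor, which is broadly expressed (chromosome 5, 64803388 to 64832901, plus strand). It was at 180.1 and 145.4 CPM at 0 h (A and B) and at 104.5 and 101.6 CPM at 24 h. The groups did not overlap, and the 0 h libraries differed more from each other than the 24 h ones did. The transcript fell by 36.7% (log2 fold change -0.66, SE 0.13, 95% interval -0.96 to -0.36, adjusted p = 0.0299). Leaving out 0 h A gave -0.50 and leaving out 0 h B gave -0.81. With 24 h A or 24 h B left out the call of Klf3 was lost (adjusted p = 0.184 and 0.262) at log2 fold changes of -0.70 and -0.65. A noncoding gene on the other strand, Gm20033, shares 404 of the 11243 exon bases of Klf3 and had 13 to 23 counts, against 4753 to 9111 for Klf3.

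Klf12 encodes the repressor first named AP-2rep for its action on the AP-2alpha gene. It was near the limit of detection, with 47 and 34 counts at 0 h and 14 and 32 at 24 h (0.929, 0.6995, 0.2818 and 0.6838 CPM). The groups barely missed overlapping, and the 24 h replicates were far apart. Its log2 fold change was -0.76 (SE 0.47, 95% interval -1.87 to 0.34, adjusted p = 0.346), with -1.54 when 24 h B was left out and -0.27 when 24 h A was. A difference of the size seen for Klf8 was therefore not detectable for Klf12 at this depth. Its nearest protein-coding neighbour is the labelled target Klf5, 555.6 kb away on chromosome 14.

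Klf6 and Klf7, the activators of the set, did not pass the test. Klf6 encodes a factor induced by growth signals and known as a tumour suppressor (chromosome 13, 5861482 to 5870394). It was at 53.96 and 65.53 CPM at 0 h (A and B) and at 59.15 and 61.25 CPM at 24 h, and both 24 h values lay between those of 0 h. Its log2 fold change was 0.01 (95% interval -0.29 to 0.31), so a rise of over 23.9% was outside that interval. The sign was not stable, at -0.12 when 0 h A was left out and -0.11 after a GC and length correction. It was 0.15 when 0 h B was left out.

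Klf7, known for its role in neurons, was at 10.87 and 11.23 CPM at 0 h (A and B) and at 12.32 and 12.01 CPM at 24 h (chromosome 1, 64029447 to 64122282). The groups did not overlap, with 24 h slightly higher, as for 29.3% of all genes tested. The log2 fold change was 0.14 (SE 0.14, 95% interval -0.18 to 0.46, adjusted p = 0.556), and 0.04 after the GC and length correction. The noncoding gene Gm26649 on the other strand covers 3196 of the 8131 exon bases of Klf7. It had 0 counts in every library, and since the strand setting of the counting is not given in the sources used here, the counts of Klf7 are uncertain.

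Of the 5 Sin3A-binding members, 0 passed edgeR's test. DESeq2 called 1 lower (Klf16) and limma voom 0, beside 5.28% and 2.16% of all genes lower. At an unadjusted p under 0.05, 2 (Klf10 and Klf16) were lower, beside 12.6% of all genes. Klf9 encodes a factor induced by glucocorticoid and thyroid hormone (chromosome 19, 23141226 to 23168134). It was at 190.5 and 178.2 CPM at 0 h (A and B) and at 194.1 and 199.6 CPM at 24 h. Both 24 h values were above both 0 h values by a small margin. The log2 fold change was 0.09 (SE 0.10, 95% interval -0.14 to 0.33, adjusted p = 0.577), which leaves a rise of up to 25.4% within the interval. When 0 h A was left out, the log2 fold change of Klf9 was 0.14, and when 0 h B was left out it was 0.04.

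Klf10 and Klf11 encode the TGF-beta inducible early factors, which take part in growth arrest. Klf10 was at 156.7 and 143.5 CPM at 0 h (A and B) and at 119.9 and 117.6 CPM at 24 h (chromosome 15, 38291463 to 38300706). The groups did not overlap, with a log2 fold change of -0.34 (SE 0.10, 95% interval -0.58 to -0.10, unadjusted p = 0.0124 and adjusted p = 0.0979 in edgeR's test). After the GC and length correction Klf10 passed (-0.39, adjusted p = 0.00979), beside 12.5% of all genes lower. It was at -0.28 when 0 h A was left out and -0.40 when 0 h B was. Klf11 was at 38.66 and 36.21 CPM, then 32.66 and 31.86 CPM (chromosome 12, 24651274 to 24662789). Its groups did not overlap either, and its log2 fold change was -0.21 (95% interval -0.48 to 0.05, adjusted p = 0.28). Klf11 was at -0.27 when 0 h B was left out. After the GC and length correction with the replicate letter as a block, Klf11 passed as lower in edgeR's test (-0.23, adjusted p = 0.0269). Under that setting 17.6% of all genes were lower.

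Klf16, first described as a regulator of dopamine receptor genes, was at 81.0 and 54.71 CPM at 0 h (A and B) and at 45.83 and 44.94 CPM at 24 h (chromosome 10, 80567124 to 80577321). The 24 h libraries were close together and below both 0 h libraries, which differed widely. The log2 fold change was -0.58 (SE 0.18, 95% interval -1.01 to -0.15, unadjusted p = 0.0149 and adjusted p = 0.108 in edgeR's test). At 60.43% its transcript has the highest GC content of the 10. After the GC and length correction its log2 fold change was -0.26, which passed (adjusted p = 0.024), beside 12.5% of all genes lower. Leaving out 0 h A gave -0.27 and leaving out 0 h B gave -0.84.

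Klf13, known as an activator of the chemokine gene Ccl5 in T cells, was at 59.72 and 47.34 CPM at 0 h (A and B) and at 51.38 and 48.81 CPM at 24 h (chromosome 7, 63886351 to 63938915). Both 24 h values lay between the 0 h values. The log2 fold change was -0.10 (95% interval -0.42 to 0.23, adjusted p = 0.697), with 0.08 when 0 h A was left out and 0.02 after the GC and length correction. When 0 h B was left out it was -0.26. Ccl5 itself had 0 counts in 3 libraries and 1 count in the other.

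**Figure D3:**
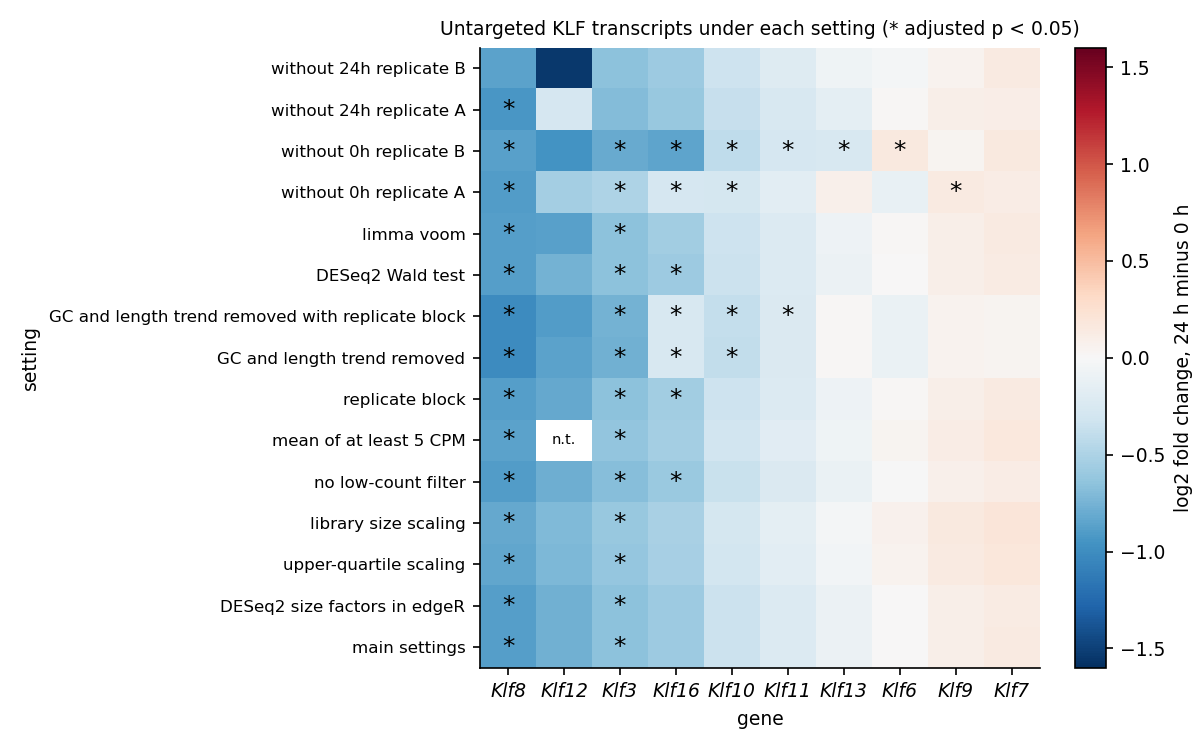
Log2 fold change of the 10 members (columns, from lowest to highest in the main settings) under each setting (rows), in colour from blue (lower at 24 h) to red (higher), with an asterisk where the adjusted p was under 0.05. Klf8 carries an asterisk under every setting shown but the one that leaves out 24 h B, and Klf3 under every one but those that leave out a 24 h library (n.t. marks Klf12, not tested at a mean of at least 5 CPM).

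How many members were called lower depended on the setting, as did the share of all genes. Klf3 and Klf8 alone were called with DESeq2's size factors in edgeR (2.9% of all genes lower), upper-quartile scaling (2.51%), library size scaling (2.39%), a minimum mean of 5 CPM (1.66%) and limma voom (2.16%). Klf16 joined them with no low-count filter (5.1%), with the replicate letter as a block (8.86%) and in DESeq2's Wald test (5.28%). Leaving out 0 h A gave 4 lower members (15.8%) and leaving out 0 h B gave 6 (27%). Leaving out 24 h A gave 1 (1.05%) and leaving out 24 h B gave 0 (0.899%). The GC and length correction removes from each library its trend with these properties of the genes. It left 4 members lower (Klf3, Klf8, Klf10 and Klf16) and 0 higher, beside 12.5% and 12% of all genes, and with the block added 5 lower (17.6%). With the correction alone, the median over the 10 was -0.25. Across all genes the correction alone gave 2164 higher and 2243 lower (49.1% higher), against 748 and 477 (61.1% higher) in the main settings. The log2 ratio of replicate A to B ranged at 0 h from -0.28 (Klf6) to 0.57 (Klf16) and was higher in transcripts of higher GC content (Pearson's r = 0.74 over the 10 members, which share their libraries). At 24 h, leaving aside Klf12 with its low counts, that ratio stayed between -0.05 and 0.07. Klf8 had one of the lowest GC contents (42.7%) and a ratio of -0.03 at 0 h, and Klf3 (45.66%) one of 0.31.

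**Figure D4:**
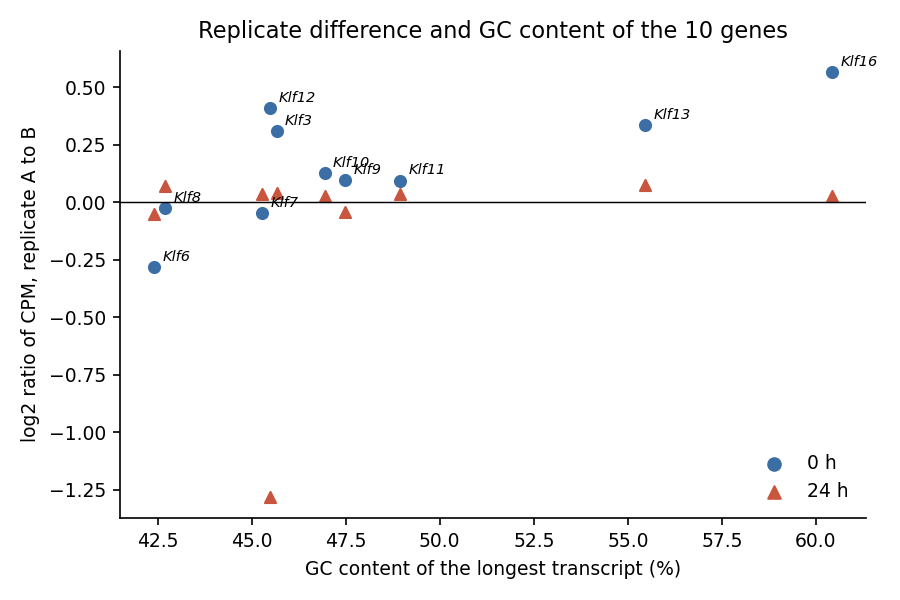
Log2 ratio of CPM in replicate A to replicate B against the GC content of the longest transcript (%), with 1 blue circle (0 h) and 1 red triangle (24 h) for each of the 10 genes. Blue circles climb from Klf6 at -0.28 to Klf16 at 0.57, while red triangles stay near 0 except for Klf12 (-1.28).

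Ratios of counts between members do not depend on how libraries are scaled. The ratio of Klf8 to Klf9 was 0.261 and 0.284 at 0 h (A and B) and 0.144 and 0.133 at 24 h. That of Klf3 to Klf9 was 0.945 and 0.816, then 0.538 and 0.509, and that of Klf10 to Klf9 0.822 and 0.805, then 0.617 and 0.589. All 3 were lower in both 24 h libraries. The ratio of Klf6 to Klf9 was 0.283 and 0.368, then 0.305 and 0.307, with no separation of the groups. Klf3 to Klf8 was 3.63 and 2.88, then 3.75 and 3.82. Such ratios show unequal change and not which gene of the pair changed.

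The summed level of the 10 members was 163.5 and 145.5 CPM per kilobase at 0 h (A and B) and 130.2 and 129.9 at 24 h. Both 24 h libraries were below both 0 h libraries, and the ratio of the 24 h mean to the 0 h mean was 0.842. The exact permutation test of a single value over 2 libraries a group cannot reach a 2-sided p of 0.05, so no test was run on the sums and they are a description. The CtBP group's sum went from 24.21 ± 2.09 to 14.46 ± 0.325 (SD, n = 2), that of Klf6 and Klf7 from 14.97 ± 1.9 to 15.21 ± 0.311, and that of the Sin3A group from 115.3 ± 12.6 to 100.3 ± 0.212. Klf9 made up 24.2% and 25.4% of the 10 members' sum at 0 h and 31.0% and 31.9% at 24 h. The labelled targets summed to 317.1 and 207.7, then 203.3 and 201.3. The 10 members thus held 34.0% and 41.2% of the sum of these 13 genes at 0 h, and 39.0% and 39.2% at 24 h, where the groups overlapped.

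**Figure D5:**
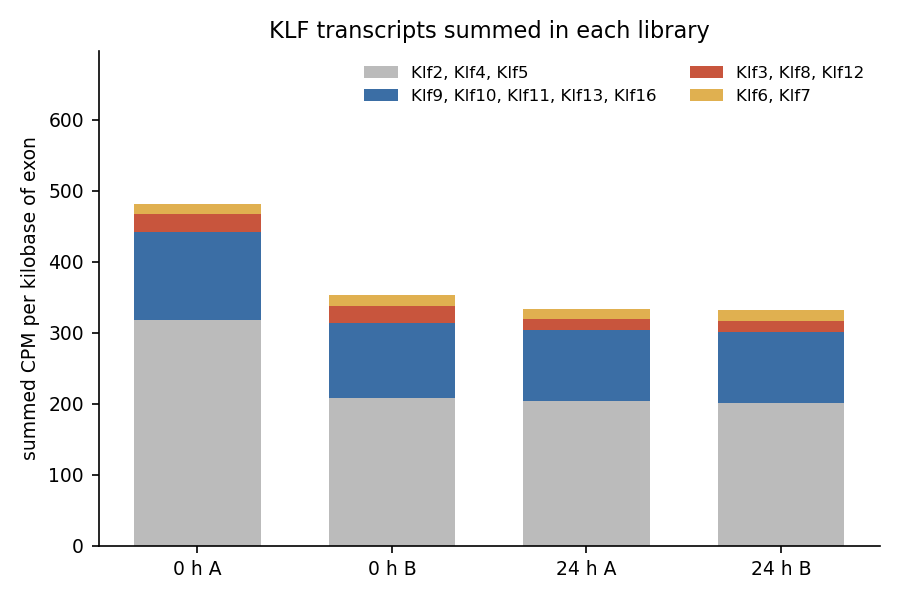
Summed CPM per kilobase of exon in each library, stacked from the labelled targets (grey), the Sin3A group (blue), the CtBP group (red) and Klf6 with Klf7 (yellow). The bar of 0 h replicate A is the tallest, and the red segment is smaller in both 24 h libraries (14.69 and 14.23) than at 0 h (25.69 and 22.74).

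Among other relatives, Klf15 was at 38.86 and 26.13 CPM at 0 h and at 24.07 and 23.76 CPM at 24 h (log2 fold change -0.44, adjusted p = 0.198). Its value was -0.13 when 0 h A was left out and -0.70, which passed, when 0 h B was. Klf14, near the limit of detection, was at 0.144 to 0.4629 CPM (log2 fold change 0.98, or 1.66 when 0 h A was left out, with no call). Of 9 SP factors, relatives that share the zinc finger type, 0 passed edgeR's test. DESeq2 called 1 higher and limma voom 0, beside 5.76% and 3.87% of all genes higher. By the unadjusted p (under 0.05) 1 was higher and 1 lower, beside 25.8% of all genes in either direction. Sp9 was at 0.9488 and 0.3498 CPM at 0 h and at 2.053 and 2.137 CPM at 24 h (log2 fold change 1.68, adjusted p = 0.0608). It passed as higher in 11 of 13 alternatives, at 2.58 when 0 h A was left out and 1.14 when 0 h B was. Sp5 had a log2 fold change of -1.20 (adjusted p = 0.118) and Sp8 one of 0.62 (0.93 when 0 h A was left out). The SP median was -0.10.

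Genes for the cofactors of KLF proteins had mostly negative values. Of 15 corepressor and coactivator genes, 0 passed edgeR's test. DESeq2 called 1 lower and limma voom 0, beside 5.28% and 2.16% of all genes lower. At an unadjusted p under 0.05, 5 were lower and 0 higher, beside 12.6% of all genes lower. Log2 fold changes of the 15 were negative in 13 and positive in 2, beside 50.8% of all genes negative, with a median of -0.22. The groups of 11 did not overlap with 24 h lower, beside 29.5% of all genes tested. Sin3b, which encodes a scaffold of the Sin3 complex, went from 193.5 and 151.8 CPM to 124.2 and 126.7 CPM (log2 fold change -0.46, adjusted p = 0.0885), with -0.28 when 0 h A was left out and -0.63 when 0 h B was, both past the test. Its paralog Sin3a had -0.29, the complex member Sap30 -0.33 and the histone chaperone gene Rbbp7 -0.32. After the GC and length correction, 8 of the 15 were called lower, beside 12.5% of all genes. The CtBP genes, named after their values were seen, were at -0.22 (Ctbp1) and -0.22 (Ctbp2). When 0 h A was left out they were at 0.04 and -0.04, and when 0 h B was left out at -0.45 and -0.39, both called.

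Of 6 genes for enzymes that modify or degrade KLF proteins, 1 passed, as lower, beside 2.65% of all genes tested. Parp1, a poly(ADP-ribose) polymerase of DNA repair, fell from 971.3 and 918.2 CPM to 623.2 and 640.4 CPM (log2 fold change -0.58, adjusted p = 0.0171). The call of Parp1 was lost when either 24 h library was left out. The ubiquitin ligase genes Fbxw7 (log2 fold change 0.28, adjusted p = 0.141) and Wwp1 (0.24, adjusted p = 0.256, or 0.12 when 0 h A was left out) did not pass.

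Inducers that several members share were followed by their other target genes. Of 14 growth factor and serum induced early genes tested, 1 rose (Ier5, from 6.859 and 5.308 to 10.99 and 10.21 CPM) and 1 fell (Maff, from 16.19 and 11.67 to 6.762 and 7.65 CPM), beside 4.15% and 2.65% of all genes, and their median was -0.24. With adjusted p = 0.0443 and 0.035, both calls were lost at a minimum mean of 5 CPM and when 24 h A was left out, and that of Ier5 also when 24 h B was (adjusted p = 0.141). Nr4a1, an orphan nuclear receptor gene of this set, had a log2 fold change of -0.52 (adjusted p = 0.0959), or -0.30 when 0 h A was left out and -0.72 when 0 h B was, both called. Of 9 TGF-beta early targets, 1 fell, beside 2.65% of all genes. It was the inhibitory Smad6 (from 18.26 and 11.15 to 7.064 and 7.095 CPM, log2 fold change -1.06, adjusted p = 0.0459), which was not called by limma voom or at a minimum mean of 5 CPM. Its value was -0.66 when 0 h A was left out. Of 16 circadian and glucocorticoid genes, among which Klf9 and Klf10 are known to be counted, 0 passed edgeR's test. By the unadjusted p (under 0.05) 1 was higher and 3 were lower, beside 25.8% of all genes in either direction. DESeq2 called 1 higher and 2 lower, beside 5.76% and 5.28% of all genes, and limma voom 0. The clock genes Per3 (0.74, adjusted p = 0.0673) and Bhlhe40 (-0.46, adjusted p = 0.068) had the smallest p-values there. Per1 had -0.66, or -0.31 when 0 h A was left out and -0.94 when 0 h B was, both called.

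Of 17 tested genes reported as direct targets of the members, 4 fell (Klf8, Ccnd1, Ngfr and Tfap2a) and 0 rose, beside 2.65% and 4.15% of all genes. Their median log2 fold change was -0.24. Klf8 is itself a gene that KLF3 is known to repress, and the transcripts of both fell; the choice of this list with results known makes it no independent evidence. Lgals3 and C1qtnf12, also known as repressed by KLF3, were at log2 fold changes of -0.05 (0.04 after the GC and length correction) and 0.14, with adjusted p = 0.871 and 0.808. C1qtnf12 passed as higher when 0 h A was left out (0.67, adjusted p = 0.0149), and was at -0.25 when 0 h B was left out, with no call. Ccnd1, a cyclin gene that KLF8 activates, fell (from 143.0 and 131.2 to 92.76 and 90.2 CPM, log2 fold change -0.58, adjusted p = 0.0236), a call lost when either 24 h library was left out. Cdh1, which KLF8 represses, was at 0.04 (adjusted p = 0.787, or 0.08 when 0 h A was left out, with no call). The neurotrophin receptor gene Ngfr, reported for KLF7, fell from 24.17 and 17.86 to 7.145 and 6.454 CPM (log2 fold change -1.63, adjusted p = 0.00755). Tfap2a, which encodes AP-2alpha, fell from 24.29 and 19.4 to 13.24 and 14.19 CPM (log2 fold change -0.67, adjusted p = 0.0487), and it was not called by limma voom, at a minimum mean of 5 CPM or when either 24 h library was left out. Annotated antisense genes share exon bases with Tfap2a, the most being 380 of 4903 for Gm26688, which had 8 to 20 counts. Of the 5 genes reported for KLF6, 0 passed edgeR's test, 0 had an unadjusted p under 0.05 and 0 passed in DESeq2 or limma voom.

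Among 20 nearest protein-coding neighbours of the members on either side, 15 were tested, 1 rose and 0 fell, beside 4.15% and 2.65% of all genes. The riser was Rragb, a GTPase gene of nutrient sensing 65.5 kb from Klf8, which rose from 4.428 and 4.382 to 8.795 and 7.95 CPM (log2 fold change 0.93, adjusted p = 0.0226), a call lost when either 24 h library was left out. Klf8 and Rragb thus changed in opposite directions. Ubqln2, 102.1 kb on the other side of Klf8, had a log2 fold change of -0.50 (adjusted p = 0.0802), or -0.31 when 0 h A was left out and -0.68 when 0 h B was, both called.

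The transcripts whose pattern was most like that of Klf8, by the root mean square distance of log2 CPM centred over the 4 libraries among 11310 genes, were Sfrp1 (distance 0.0303), Hsd17b14 (0.0322), Ntf5 (0.0344), Gm16439 (0.0439) and Slc15a1 (0.0479). Sfrp1, which encodes a secreted Wnt antagonist, was at 344.9 and 341.6 CPM at 0 h and at 187.9 and 188.3 CPM at 24 h. Those most like Klf3 were Agfg2 (0.0174), Epas1 (0.0178), Bmyc (0.0189), Trip10 (0.0219) and Rpp25 (0.0219). Epas1, which encodes the hypoxia factor HIF-2alpha, was at 68.77 and 57.32 CPM, then 40.73 and 39.9 CPM. With 4 libraries, such likeness describes a similar fall and a similar difference between the 0 h libraries.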

How the data were processed

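Poly(A) RNA from 2 libraries at 0 h and 2 at 24 h was sequenced strand-specifically on 50 nt single ends, per the labels' protocols. The table deposited by the authors holds raw counts for each Ensembl gene. The submitters' processing notes name TopHat2, HTSeq, DESeq and mm10, while annotation release and strand setting are both not given in the sources used here. GENCODE M21 (GRCm38, the assembly of mm10) supplied symbols, positions, exon lengths and GC content, and 563 identifiers had no match (0.107% of counts).

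The filter was filterByExpr (minimum count 10, minimum total 15) and the scaling TMM. Groups were compared by the quasi-likelihood test of edgeR 4.0.16 in R 4.3.3, 2-sided, Benjamini-Hochberg adjusted over 18005 genes, at 0.05. Adjusted p-values are from that test unless another tool is named, and log2 fold changes are 24 h minus 0 h. With 2 libraries a group, the error of 1 gene borrows from the spread of the others, and p-values measure only the spread between these libraries. Where 1 library is left out, the lone one of its group is taken to vary as the other group does. Alternatives were other scalings and filters, DESeq2 1.42.0, limma 3.58.1 (voom), the replicate letter as a block, and an offset that takes out each library's spline on GC content and length, which would also take out a true change that follows GC content.

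On simulated counts for this comparison (17688 genes, no GC trend), calls recovered 6% of 1.25-fold changes, 48% of 1.5-fold, 86% of 2-fold and 100% of 4-fold, and 3 of 123 calls were false. The members and gene lists were chosen with earlier results of these data known. Genes named are the members, the labelled targets, genes of each list in order of p with those that define it, neighbours, and the 5 most alike genes of each member past the test (mean of at least 5 CPM). matplotlib 3.10.9 drew the figures.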

Additional observations from a re-analysis of the deposited data

How the results depend on the processing

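Over all genes, 1225 were called, against 2589 with no low-count filter, 562 at a minimum mean of 5 CPM, 1987 in DESeq2's Wald test, 4407 after the GC and length correction, and 506 to 9416 as each library in turn was left out. Of the 10 members, 2 were called, against 4 after that correction and 0 to 7 as each library was left out (5 for 0 h A, 7 for 0 h B, 1 for 24 h A, 0 for 24 h B). Across genes, the log2 ratio of A to B had an SD of 0.126 in the 24 h pair, against 0.319 in the 0 h pair. A fit without a 0 h library takes its error from the tighter 24 h pair alone. Without a 24 h library, the error comes from the 0 h pair alone. Calls from such fits therefore rest on the spread of a single pair. How far this accounts for the differences in the number called was not tested.

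The replicate letter as a block gave 3253 genes and 3 members (Klf3, Klf8 and Klf16), and together with the correction 6071 genes and 5 members. Same-letter deviations correlated at 0.301 across 11310 genes, but no label ties a letter to a clone, so the libraries share only a letter.

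Values that had not passed changed sign. Klf6 was at -0.01 with no filter, -0.11 after the correction (-0.11 with the block too), -0.12 when 0 h A was left out and -0.03 when 24 h B was. Klf13 was at 0.02 after the correction (0.02 with the block), and ranged from -0.26 to 0.08 as each library was left out. Klf2 was at 0.15 after the correction (0.16 with the block) and from -0.63 to 0.28 by library left out. By library left out, Ctbp1 ranged from -0.45 to 0.04 and C1qtnf12 from -0.25 to 0.67 (-0.03 for 24 h A). Lgals3 was at 0.00 under library size scaling and 0.04 after the correction (0.04 with the block). Of 650 values of 47 named genes under alternatives, 499 kept direction and call, 107 gained a call, 27 lost it and 17 changed sign. The ratio of the members' summed level at 24 h to that at 0 h was 0.842 in the main settings. In the alternatives run it lay between 0.795 (0 h B left out) and 0.894 (0 h A left out).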
